A study of Mus musculus with 7 samples.

Results

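The nuclear genes for the subunits of the mitochondrial respiratory chain and ATP synthase were examined in whole arthritic mouse ankles injected with a miR-17-5p mimic or with a control microRNA. The members were the nuclear genes with symbols starting Ndufa, Ndufb, Ndufc, Ndufs or Ndufv, Sdha to Sdhd, Uqcr, Cyc1, Cox4 to Cox8 or Atp5, without assembly factors and pseudogenes, whose mean was at least 1 FPKM (fragments per kilobase of gene model, scaled to the library's assigned reads). This rule gave 84 genes of the 27179 in the table, of which 13418 reached a mean of 1 FPKM. Complex I had 36 members, complex II 4, complex III 9, complex IV 18 and ATP synthase (complex V) 17. Ndufa4, first assigned to complex I and now counted as a subunit of complex IV, and its paralog Ndufa4l2 were placed in complex IV. The rule used the mean level and no difference between the groups, so the levels are given as a description.

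The respiratory chain sits in the inner mitochondrial membrane. Complex I takes electrons from NADH and complex II from succinate, ubiquinone carries them to complex III, cytochrome c carries them on to complex IV, and oxygen is reduced there, while complexes I, III and IV pump protons. Complex V lets the protons flow back and makes ATP. Complex II is encoded by nuclear genes alone, whereas the other complexes also hold subunits made inside the mitochondrion. Several complex IV subunits have a heart and skeletal muscle isoform beside the form found in most tissues, and striated muscle is among the tissues richest in these transcripts.

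The mice were of the DBA1 strain with collagen-induced arthritis, where an immune response to collagen inflames the joints. A lipoplex, a complex of lipid and nucleic acid, was injected into the ankle joint with either the miR-17-5p mimic (4 libraries, replicates 1, 2, 4 and 5) or an irrelevant microRNA (3 libraries, control replicates 2, 3 and 5). The groups shared the strain, the disease and the route, and no uninjected or healthy ankle was analysed here. The ankle was skinned, frozen and extracted whole, so bone, marrow, cartilage, synovium, tendon, fat and adhering muscle could all contribute RNA. Whether each ankle came from its own animal is not stated in the labels, and the p-values below refer to the spread among these 7 libraries alone.

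Between 27465276 and 31118975 assigned reads stood behind each library, and 1 read in a gene model of 1 kilobase was worth between 0.0321 and 0.0364 FPKM. The members rested on at least 58 reads (Cox7a1) and at most 26515 (Atp5b) in a library. Transcripts of skeletal muscle differed widely between the libraries of each group. The summed level of 15 fast muscle genes (such as Acta1, Ckm and Myh4) ran from 1528 to 9102 FPKM in control ankles and from 3703 to 13738 FPKM in mimic ankles, and none of the 15 was at 0 in any library. In whole tissue, fewer cells of a type and less RNA per cell cannot be told apart.

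The microRNA and its possible contacts with the members are given here because miR-17-5p is the injected agent. Its mature sequence (RefSeq, GRCm38.p6, chr14:115043684-115043706, plus strand) is printed with the seed, bases 2 to 8, in capitals.
miR-17-5p: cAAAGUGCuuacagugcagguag

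For every gene the longest 3 prime UTR in GENCODE (mouse release M21) was searched for a match to that seed, as the 8mer GCACTTTA, the 7mer GCACTTT or the 7mer CACTTTA on the transcript strand. A match was found in 5 of 84 members (5.95%), with 0 matches to the 8mer, against 22.2% of 12616 tested genes with a UTR. The members' UTRs were short, with a median of 272 bases against 1316 bases over the tested genes. The members with a match were Ndufa10, Ndufab1, Ndufb2, Sdhd and Uqcrb. In Ndufa10, Ndufab1 and Ndufb2 the UTR was longer than the whole gene model behind the deposited values (1302 against 1220 bases, 2944 against 800 and 4012 against 455). In each of these genes the site lay outside the span of that gene model. The sites of Sdhd, a membrane anchor of complex II, and Uqcrb, a complex III subunit that contributes to the quinone site, lay in UTRs of 728 and 132 bases. They are shown, 5′ to 3′ on the transcript strand, with the match in capitals (GRCm38, minus strand, chr9:50597055-50597084 for Sdhd and chr13:66900628-66900657 for Uqcrb).
Sdhd: cctgggtgcaGCACTTTgattgtgtgcctc
Uqcrb: tacctatgccaCACTTTAaataaatgtcta

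Neither gene passed the test between the groups. Values are listed throughout in the order of control replicates 2, 3 and 5 and mimic replicates 1, 2, 4 and 5. Sdhd stood at 108, 99.1 and 101 FPKM in the control libraries and at 98.2, 103, 95.1 and 102 FPKM in the mimic libraries, with a log2 fold change (mimic minus control, on log2(FPKM + 0.5)) of -0.047 (SE 0.0606, adjusted p by limma = 0.691). Uqcrb stood at 128, 105 and 105 FPKM and at 105, 134, 111 and 134 FPKM, with a log2 fold change of 0.10 (SE 0.120, adjusted p by limma = 0.655). In both genes the groups overlapped. A match is a description of the letters only, and nothing is drawn from it about binding.

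The members were abundant transcripts in the ankle. The median of their mean levels was 101 FPKM, against 10.1 FPKM over all genes tested. By complex the median ran from 75.6 FPKM in complex I to 95.2 in complex II, 117 in complex III, 118 in complex IV and 174 in complex V. Cox4i1, the common form of the regulatory subunit 4 of complex IV, was highest at 454 FPKM, followed by Atp5b, the catalytic beta subunit of ATP synthase, at 414 FPKM. The lowest member was Cox6b2, known as a testis form of subunit 6b, at 5.23 FPKM, and this was also the member nearest to the limit of the rule. The 4 protein-coding genes outside the limit were Ndufb4c at 0.441 FPKM, Ndufb4b at 0.0118 FPKM, and Cox7b2 and Cox8c, both listed at 0. Complex II showed the narrowest range, from Sdhc at 86.0 to Sdhb at 106 FPKM, whereas complex IV ran from 5.23 to 454 FPKM. FPKM is a level per length of gene model, so these levels are comparable between genes only as far as the models match the transcripts in the tissue.

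**Figure D1:**
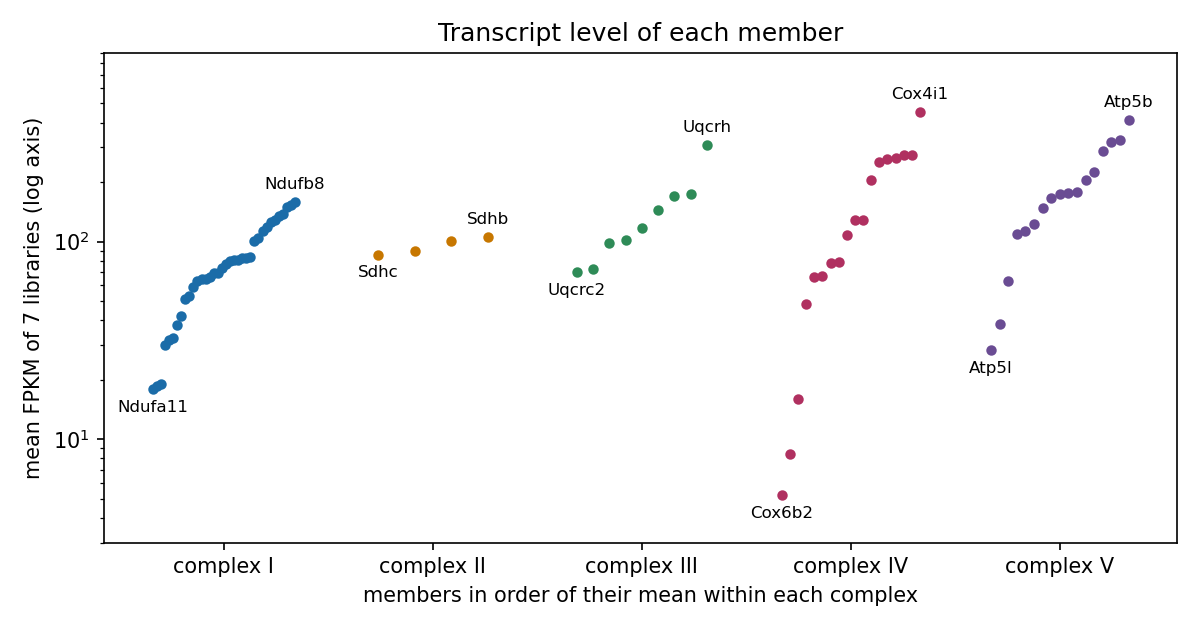
Mean FPKM over the 7 libraries (log axis) of each of the 84 members, ordered by level within each complex, 1 point a member. Complex II members lie between 86.0 and 106 FPKM, and complex IV holds both the lowest (Cox6b2, 5.23) and the highest (Cox4i1, 454) member.

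Some levels are uncertain because reads can be shared between near-identical copies. Ndufs5, an accessory subunit of complex I, stood at 29.8 FPKM while its transcribed pseudogene Ndufs5-ps, left out by the rule, stood at 4.30 FPKM. Atp5g1, Atp5g2 and Atp5g3, whose products have the same mature ring subunit c, stood at 63.4, 38.3 and 319 FPKM, and reads could be split between them. Overlapping and antisense genes cannot be told apart, since the handling of strand in counting is not given in the sources used here.

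No member passed the test between the groups over all genes. At a limma adjusted p under 0.05, 0 of 84 members were called in either direction, and so were 0% of the 13418 genes tested. At an unadjusted p under 0.05 the count was also 0 of 84, while 17.6% of all genes tested passed (7.48% higher and 10.1% lower in mimic ankles). The libraries of the groups did not overlap in 1 of 84 members, Cox6a1, which was lower in every mimic library. Over all genes this held for 15.3% (6.48% with mimic higher, 8.84% with mimic lower). With limma-voom on the recovered reads, 1 of 84 members (Cox6a1) had an unadjusted p under 0.05, against 17.6% of all genes, and 0 of 84 passed after adjustment. On the unadjusted counts and on overlap, the shares of members were thus below the background.

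The 95% interval of the fold change lay within 1.5-fold in either direction for 80 of 84 members (10321 of 13418 genes tested). It lay within 1.2-fold for 20 of 84 members (3913 of 13418 genes tested), a smaller share than over all genes. The 4 members with a wider interval than 1.5-fold were Cox4i2, Cox6a2, Cox7a1 and Cox8b, all isoforms of complex IV with a restricted tissue pattern. The mimic mean was the higher in 66 members and the lower in 18, with a median log2 fold change of 0.041, against -0.0063 over all genes. That small lean depended on single libraries. Without control replicate 3 the mimic mean was higher in 36 of 84 members (median -0.015), without mimic replicate 2 in 41 (median -0.0059), and without control replicate 2 in 79 (median 0.11). With control replicate 2 left out, 2 of 84 members had an unadjusted p under 0.05 (Cox4i2 and Ndufs4), against 28.6% of all genes, and 0 of 84 passed the adjusted p, against 0.857% of all genes higher and 1.51% lower.

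**Figure D2:**
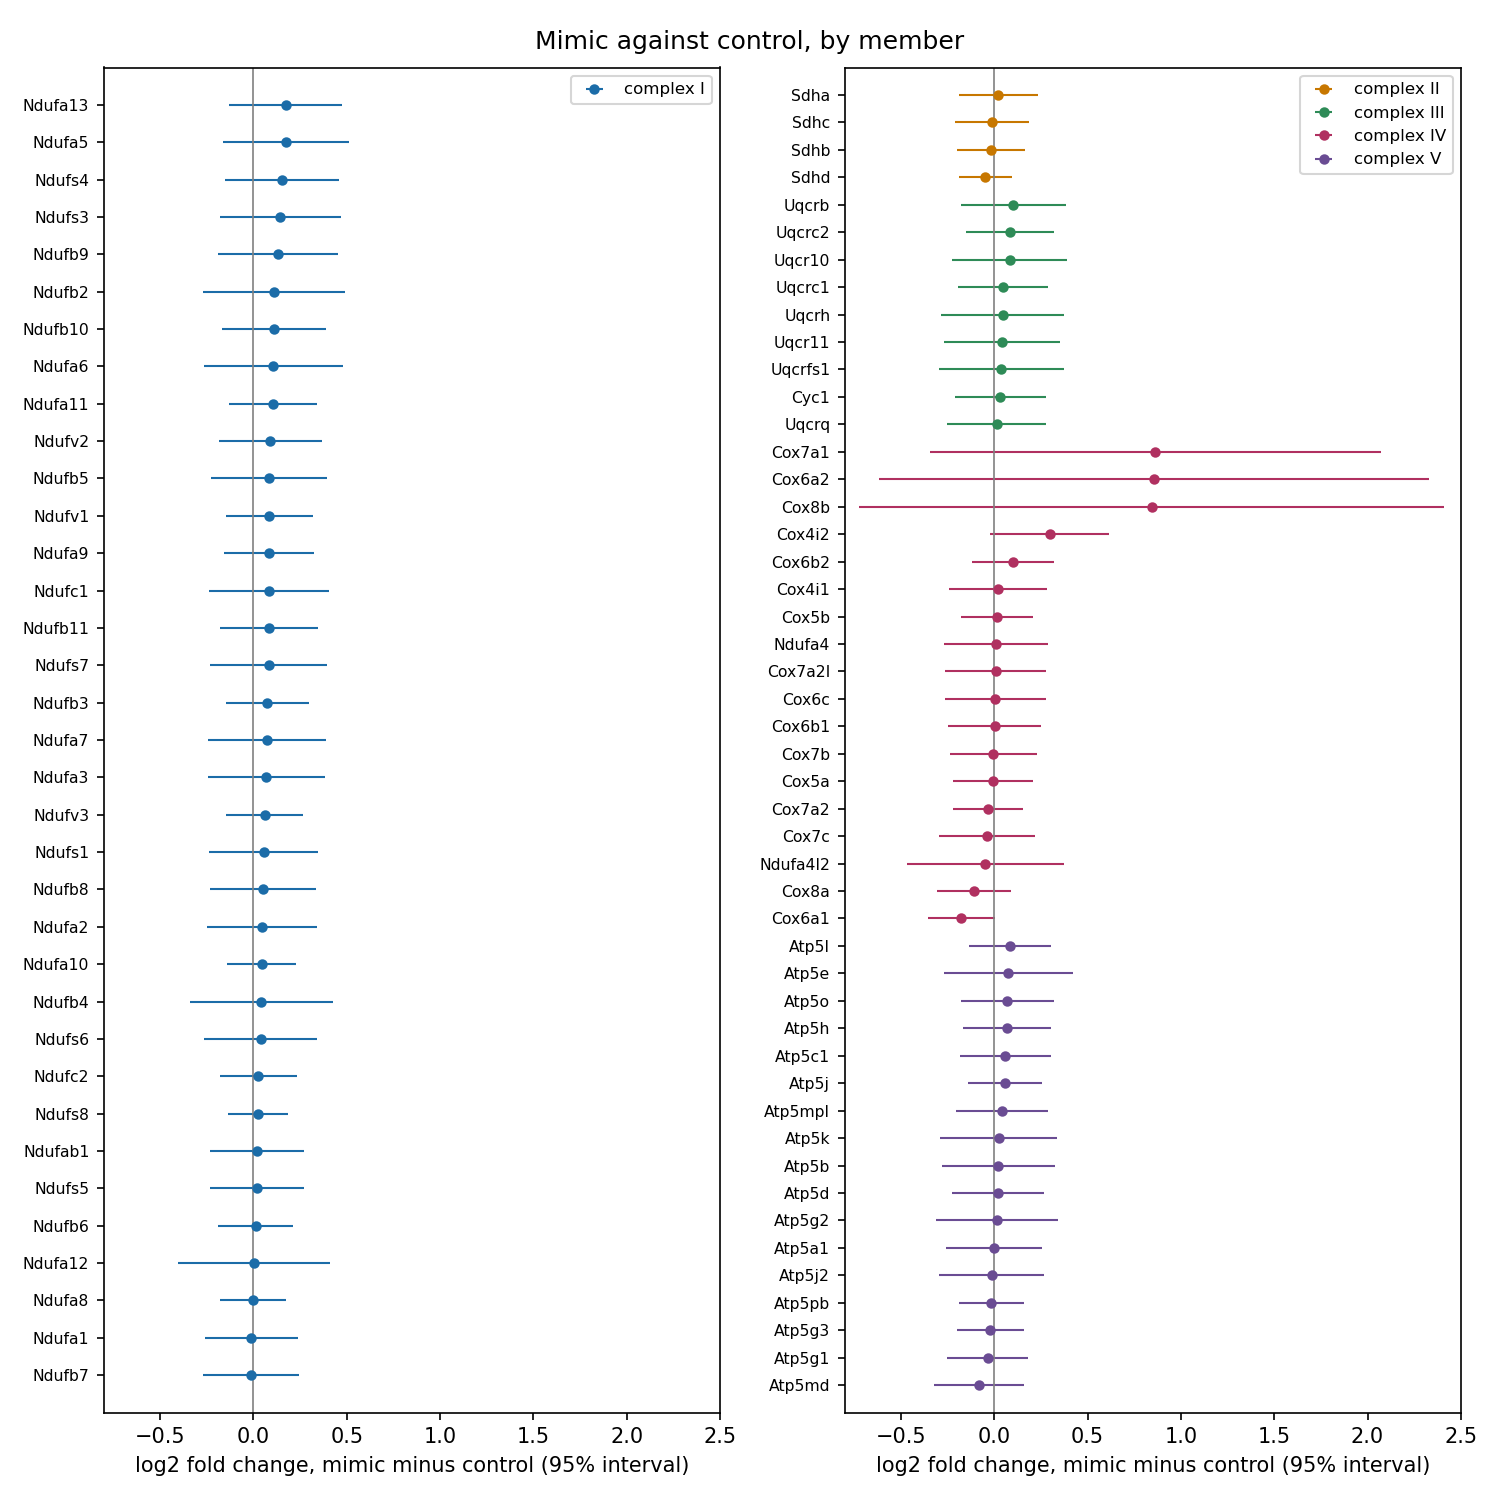
Log2 fold change (mimic minus control, log2(FPKM + 0.5)) of 83 of the 84 members with its 95% interval from limma, coloured by complex. Every interval drawn but those of Cox4i2, Cox6a2, Cox7a1 and Cox8b stays within 1.5-fold, and all 83 include 0.

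The larger differences ran between libraries within each group, and most members shared them. Control replicate 2, mimic replicate 2 and mimic replicate 5 were above all of the other 4 libraries in 72 of 84 members (85.7%), and in 10.6% of all genes tested. These libraries were singled out after their values were seen. The pattern held in 34 of 36 members of complex I, 4 of 4 of complex II, 8 of 9 of complex III, 10 of 18 of complex IV and 16 of 17 of complex V. The 12 exceptions were Atp5g2, Cox4i2, Cox6a1, Cox6b2, Cox7a2, Cox7a2l, Cox7c, Cox8a, Ndufa1, Ndufa4l2, Ndufc2 and Uqcrh. Of these, 8 belong to complex IV.

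The mean log2 difference of the 84 members from their 7-library mean was 0.14 in control replicate 2, -0.15 in control replicate 3 and -0.11 in control replicate 5. In the mimic libraries it was -0.12 in replicate 1, 0.17 in replicate 2, -0.10 in replicate 4 and 0.17 in replicate 5. The group difference of 0.071 was thus below the SD within groups, 0.16. Without Cox6a2, Cox7a1 and Cox8b it was 0.042 (SD within groups 0.14), and over those 3 isoforms alone it was 0.85 (SD within groups 0.94). A member's highest library was 1.30-fold above its lowest at the median, with a range of 1.13-fold to 1.75-fold in the 81 members other than Cox6a2, Cox7a1 and Cox8b. Mimic replicate 5 was the highest library of 32 members, mimic replicate 2 of 26 and control replicate 2 of 22, while control replicate 3 was the lowest of 38.

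The libraries with high levels of the chain subunits were also those with the most muscle transcript. The mean log2 level of the 15 fast muscle genes was 8.71 in control replicate 2, 9.08 in mimic replicate 2 and 9.28 in mimic replicate 5. It was 7.61 and 6.05 in control replicates 3 and 5, and 7.53 and 8.27 in mimic replicates 1 and 4. All 15 of 15 had the higher mean in mimic ankles (1 at unadjusted p under 0.05, 0 adjusted, 0 without overlap of the groups), as had 8 of 8 slow muscle genes (summed 174 to 580 FPKM in control and 337 to 935 FPKM in mimic ankles, none at 0). The order was not the same throughout, since control replicate 5 held the least muscle transcript but control replicate 3 the lowest subunit levels in the most members. With the muscle level as a covariate in the limma fit, the fitted log2 fold change was above 0 in 7 of 84 members. Its median was -0.064, with 0 of 84 at an unadjusted p under 0.05. The muscle level came from the same libraries, and all 15 of its genes had the higher mean in mimic ankles. That fit therefore cannot fully tell muscle and group apart, and the part of muscle in these differences was not tested.

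**Figure D3:**
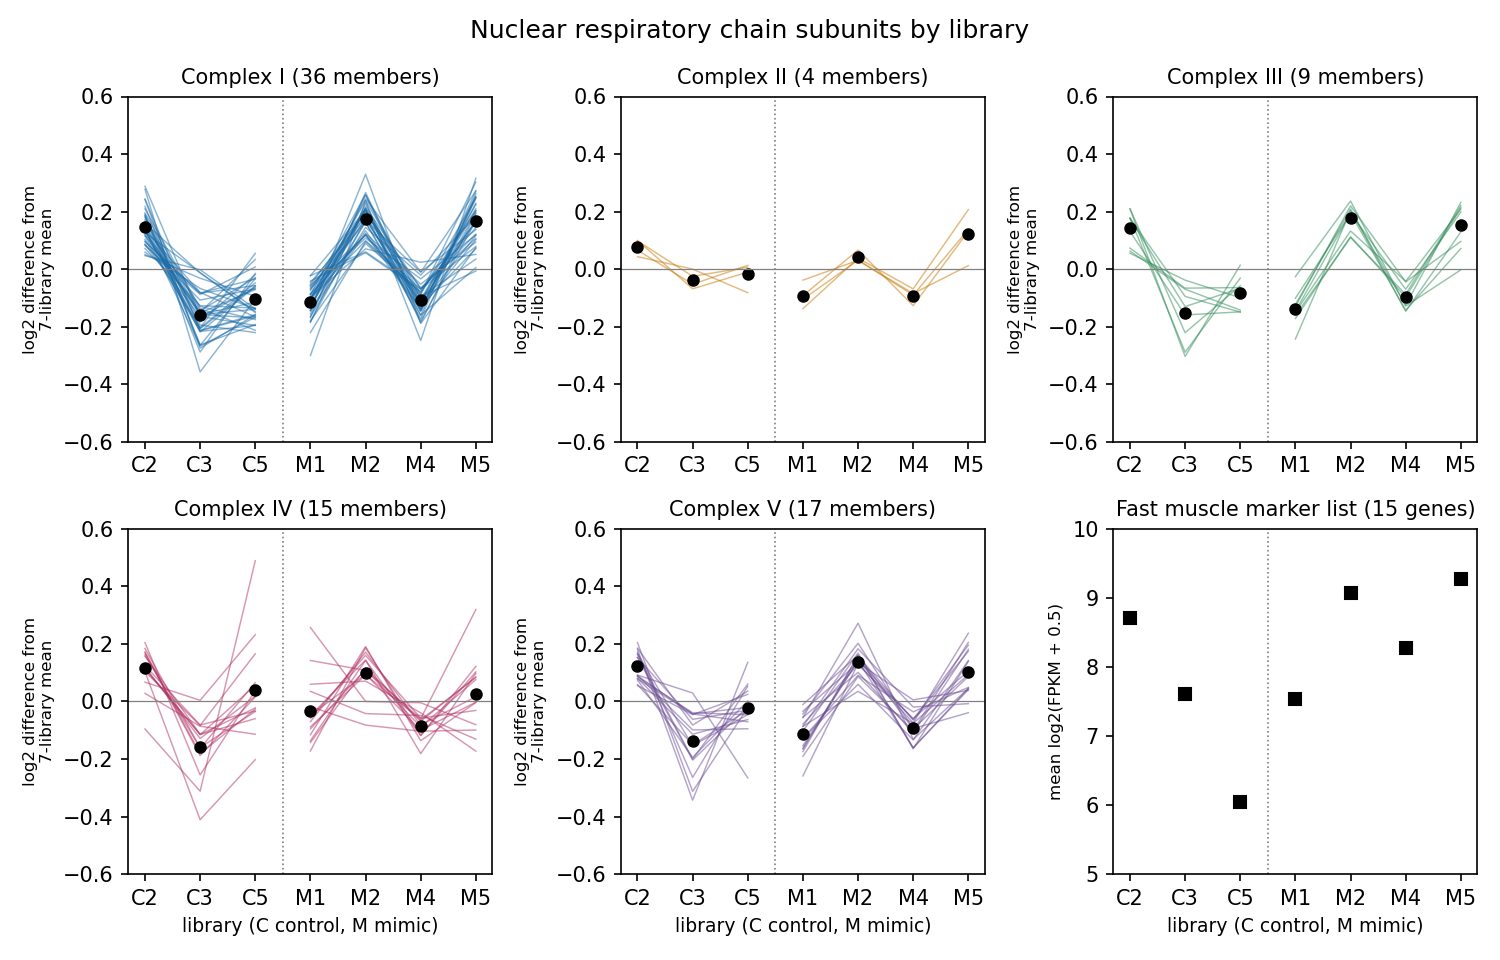
Log2 difference of each member from its 7-library mean (y axis) in each library (x axis, C control, M mimic, with the replicate number), a panel for each complex and a line for each member, black points for the panel mean. The lines join libraries only to follow a member, Cox6a2, Cox7a1 and Cox8b are left out of the complex IV panel, and the last panel gives the mean log2(FPKM + 0.5) of 15 fast muscle genes. C2, M2 and M5 are high in complexes I to III and V and in the muscle panel.

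In complex I the mimic mean was higher in 33 of 36 members, 0 of 36 had an unadjusted p under 0.05, and the median log2 fold change was 0.071. With the muscle covariate that median was -0.049, and it was 0.0099 without control replicate 3. Ndufa13, an accessory subunit also known as GRIM-19, stood at 88.9, 70.5 and 71.6 FPKM in control libraries and at 76.4, 96.9, 77.2 and 97.6 FPKM in mimic libraries. Its log2 fold change of 0.17 (SE 0.129, adjusted p by limma = 0.496) was the smallest-p difference of the complex, and control replicate 2 lay above mimic replicates 1 and 4. Ndufa5, an accessory subunit of the peripheral arm, stood at 70.6, 53.2 and 57.1 FPKM and at 60.3, 76.9, 57.9 and 77.5 FPKM, with a log2 fold change of 0.17 (SE 0.144, adjusted p = 0.541). Both genes had the same high libraries and overlapping groups.

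Ndufv1 and Ndufs1 belong to the catalytic core of complex I. Their differences were smaller than those of Ndufa13 and Ndufa5, which were named for the smallest p of the complex. The core as a whole was not compared with the accessory subunits, and Ndufs3 had a log2 fold change of 0.15. Ndufv1, which holds the NADH site, stood at 63.7 ± 4.46 FPKM (n = 3, SD) in the control group and 67.9 ± 7.78 FPKM (n = 4, SD) in the mimic group, with a log2 fold change of 0.085 (adjusted p by limma = 0.659). Ndufs1, the largest iron-sulphur subunit, stood at 31.5 ± 2.09 and 33.0 ± 5.34 FPKM. Ndufab1, the acyl carrier protein that also serves mitochondrial fatty acid synthesis, stood at 18.9 ± 1.84 and 19.2 ± 2.33 FPKM, a log2 fold change of 0.019. In each of these 3 genes the difference was smaller than the SD within either group. Ndufs4, an accessory subunit of the peripheral arm, stood at 47.7, 34.7 and 36.4 FPKM in control and 38.7, 49.5, 41.4 and 45.9 FPKM in mimic libraries. It had an unadjusted p of 0.274 over all 7 libraries and was named above since it passed 0.05 only without control replicate 2, its second highest library.

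In complex II, which also works in the citric acid cycle, the mimic mean was higher in 1 of 4 members and the median log2 fold change was -0.014. The 95% interval of all 4 lay within 1.2-fold. With the muscle covariate the median was -0.081, and it ran from -0.058 to 0.024 with a library left out. Sdha, the flavoprotein that oxidises succinate, stood at 92.0, 89.3 and 84.3 FPKM in control libraries and at 81.1, 91.7, 85.1 and 103 FPKM in mimic libraries, with a log2 fold change of 0.022 (SE 0.0909, adjusted p = 0.911 by limma). Sdhb, the iron-sulphur subunit, stood at 106 ± 4.37 and 105 ± 8.46 FPKM, and Sdhc, a membrane anchor, at 86.3 ± 5.17 and 85.7 ± 7.44 FPKM. The libraries high in complex I were the highest here too, though by less, with mean log2 differences of 0.077 in control replicate 2, 0.041 in mimic replicate 2 and 0.12 in mimic replicate 5.

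In complex III the mimic mean was higher in 9 of 9 members, with 0 of 9 at an unadjusted p under 0.05 and a median log2 fold change of 0.047. Without mimic replicate 2 that median was 0.00059, and with the muscle covariate it was -0.072. Uqcrc2, a core subunit, stood at 73.2, 66.8 and 63.5 FPKM in control and at 63.2, 76.9, 68.0 and 81.1 FPKM in mimic libraries, with a log2 fold change of 0.087 (SE 0.101, adjusted p by limma = 0.655). Cyc1, the cytochrome c1 that hands electrons to cytochrome c, stood at 100.5 ± 5.67 and 103 ± 12.9 FPKM. Uqcrfs1, the Rieske iron-sulphur protein, stood at 71.4 ± 8.96 and 73.7 ± 12.0 FPKM, and Uqcrc1, the other core subunit, at 96.1 ± 5.24 and 99.8 ± 12.3 FPKM. In each of these genes mimic replicate 5 was the highest library and the groups overlapped.

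Complex IV held the widest differences, and they lay in its muscle isoforms. Cox6a2, the heart and skeletal muscle form of subunit 6a (chromosome 7, 128205435 to 128206366, GRCm38), stood at 96.8, 47.7 and 19.9 FPKM in control replicates 2, 3 and 5. In mimic replicates 1, 2, 4 and 5 it stood at 41.0, 135, 56.7 and 146 FPKM. Its lowest library was thus a control and its highest a mimic, but control replicate 2 exceeded mimic replicates 1 and 4. The log2 fold change was 0.86 with a 95% interval from -0.62 to 2.33 (SE 0.629, adjusted p by limma = 0.490).

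Cox7a1, the muscle form of subunit 7a (chromosome 7, 30184171 to 30186030), stood at 12.9, 12.2 and 5.14 FPKM in control and at 10.6, 20.8, 10.4 and 39.5 FPKM in mimic libraries, with a log2 fold change of 0.86 (95% interval -0.35 to 2.07, SE 0.517, adjusted p by limma = 0.404). Mimic replicate 5 stood well above the rest, and mimic replicates 1 and 4 lay below control replicates 2 and 3. Cox8b, the muscle form of subunit 8 (chromosome 7, 140898942 to 140900446), stood at 64.7, 31.2 and 10.6 FPKM and at 25.4, 75.0, 35.5 and 95.8 FPKM, with a log2 fold change of 0.84 (95% interval -0.72 to 2.41, SE 0.669, adjusted p by limma = 0.519). In all 3 isoforms control replicate 5 was lowest and mimic replicate 5 highest, the libraries that were also lowest and highest in the fast muscle genes. With the muscle level as a covariate the log2 fold change was -0.16 for Cox6a2, -0.24 for Cox8b and 0.15 for Cox7a1.

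The forms found in most tissues varied less and had slightly lower means in mimic ankles. Cox6a1 (chromosome 5, 115345654 to 115348955) stood at 265, 254 and 298 FPKM in control and at 250.3, 239, 236 and 237 FPKM in mimic libraries, so that each mimic library lay below each control library, though mimic replicate 1 by little. Its log2 fold change of -0.18 (95% interval -0.36 to 0.0031, SE 0.0769) had the smallest p of all members (unadjusted p = 0.0532, adjusted p by limma = 0.289). Cox8a stood at 293, 257 and 305 FPKM and at 279, 264, 263 and 248 FPKM, a log2 fold change of -0.11 (SE 0.0849, adjusted p by limma = 0.513), and here the groups overlapped. Cox7a2 stood at 139, 118 and 133 FPKM and at 124, 137, 119.5 and 128 FPKM, a log2 fold change of -0.033 (SE 0.0803, adjusted p by limma = 0.841), also with overlap.

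As a share of the pair, Cox6a2 made up 26.7%, 15.8% and 6.28% of Cox6a2 plus Cox6a1 in the control libraries and 14.1%, 36.0%, 19.4% and 38.2% in the mimic libraries. Cox7a1 made up between 3.71% and 23.6% of its pair with Cox7a2 over the 7 libraries, and Cox8b between 3.37% and 27.8% of its pair with Cox8a. The log2 ratio of Cox6a2 to Cox6a1 was -2.57 ± 1.22 (n = 3, SD) in the control group and -1.54 ± 0.930 (n = 4, SD) in the mimic group, a difference of 1.03 (2-sided exact permutation p = 0.257). The difference was 0.90 for Cox7a1 to Cox7a2 (exact permutation p = 0.286) and 0.95 for Cox8b to Cox8a (exact permutation p = 0.343). Adjusted over the 3 pairs, each p was 0.343, where 35 arrangements of the libraries allow no p under 0.0286. These differences depended on single libraries: without control replicate 5 they were 0.38 for the Cox6a pair, 0.47 for the Cox7a pair and 0.22 for the Cox8 pair. At the other end, they were 1.59 for the Cox6a pair and 1.53 for the Cox8 pair without control replicate 2, and 1.15 for the Cox7a pair without control replicate 3. With the muscle level as a covariate the difference was -0.041 for the Cox6a pair, -0.18 for the Cox8 pair and 0.22 for the Cox7a pair.

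**Figure D4:**
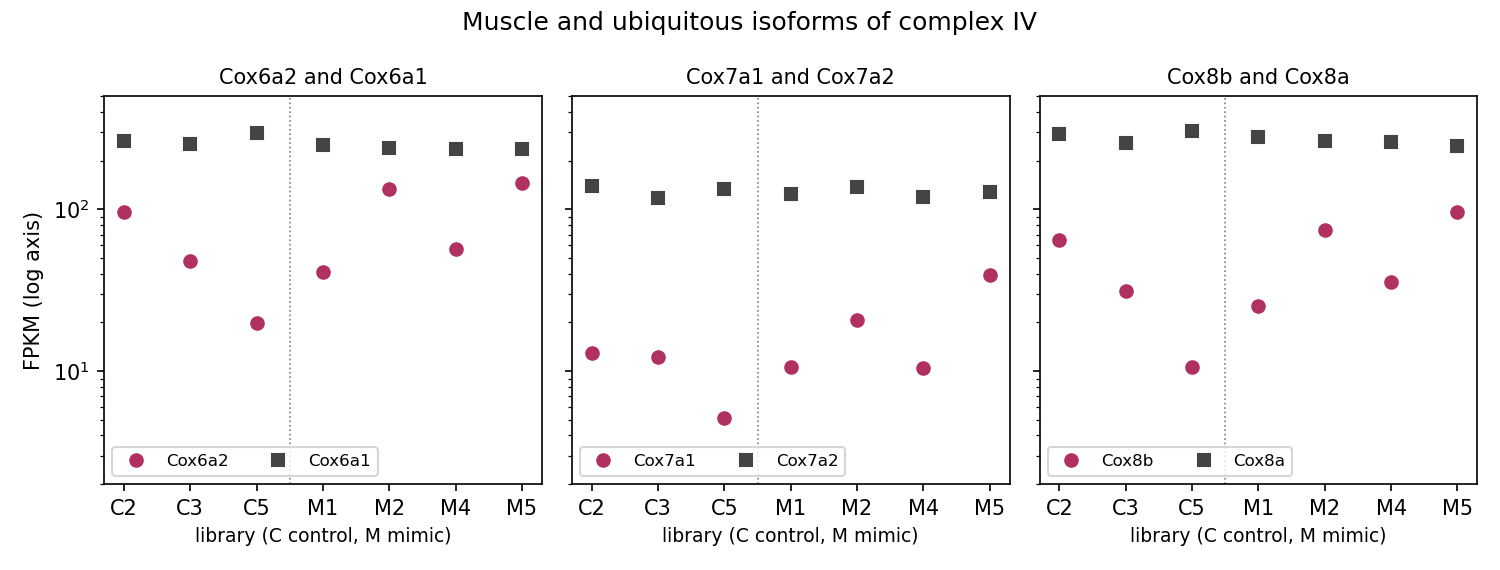
FPKM (log axis) of the muscle isoform (circles) and the form found in most tissues (squares) of complex IV subunits 6a, 7a and 8 in each library (C control, M mimic, with the replicate number). The circles range from 19.9 to 146, 5.14 to 39.5 and 10.6 to 95.8 FPKM and overlap between the groups, while the squares stay between 236 and 298, 118 and 139, and 248 and 305 FPKM.

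The promoters of the isoform pairs with an entry in the RefSeq table are shown because the genes of each pair varied so differently between libraries. The table gives 250 bases before to 50 after the transcription start (GRCm38.p6), and the stretches are chr7:30183921-30184220 (plus strand) for Cox7a1, chr7:140900397-140900696 (minus) for Cox8b, chr9:79759804-79760103 (minus) for Cox7a2 and chr19:7217567-7217866 (minus) for Cox8a. Capitals mark matches, on either strand, to any of 7 motifs searched: NRF1 (GCGCA, any base, then GCGC), GABPA (CCGGAAG), YY1 (AANATGGCG), ERR (AAGGTCA), MEF2 (CTA and TAG with any 4 bases between), an E-box of myogenic factors (CAGCTG) and a TATA box (TATAAA).
Cox7a1: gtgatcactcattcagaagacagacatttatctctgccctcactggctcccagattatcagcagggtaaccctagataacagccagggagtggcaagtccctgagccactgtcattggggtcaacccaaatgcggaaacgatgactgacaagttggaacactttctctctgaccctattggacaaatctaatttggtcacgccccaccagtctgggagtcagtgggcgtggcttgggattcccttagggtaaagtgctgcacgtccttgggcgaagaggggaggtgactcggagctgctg
Cox8b: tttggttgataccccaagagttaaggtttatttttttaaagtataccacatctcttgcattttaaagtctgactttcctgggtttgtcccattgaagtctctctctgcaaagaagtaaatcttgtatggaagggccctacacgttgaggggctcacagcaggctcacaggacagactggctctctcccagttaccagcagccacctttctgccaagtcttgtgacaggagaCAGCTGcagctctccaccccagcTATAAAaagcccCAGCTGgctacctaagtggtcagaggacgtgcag
Cox7a2: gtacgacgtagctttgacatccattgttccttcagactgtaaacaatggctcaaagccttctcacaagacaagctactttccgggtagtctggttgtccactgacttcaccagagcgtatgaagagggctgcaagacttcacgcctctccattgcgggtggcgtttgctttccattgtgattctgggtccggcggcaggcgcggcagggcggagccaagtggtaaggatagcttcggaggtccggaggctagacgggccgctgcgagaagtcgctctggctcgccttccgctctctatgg
Cox8a: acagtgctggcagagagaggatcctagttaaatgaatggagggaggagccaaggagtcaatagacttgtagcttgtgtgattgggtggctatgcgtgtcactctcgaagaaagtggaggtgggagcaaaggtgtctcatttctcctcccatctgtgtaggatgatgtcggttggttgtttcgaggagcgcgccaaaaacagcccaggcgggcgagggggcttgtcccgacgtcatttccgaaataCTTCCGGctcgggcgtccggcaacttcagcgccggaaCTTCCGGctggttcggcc

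The stretch of Cox8b held CAGCTG at 2 places and TATAAA once, and that of Cox8a held GABPA, read on the other strand as CTTCCGG, at 2 places, with no match overlapping another. Counted from the transcription start, CAGCTG began at -19 and 17 and TATAAA at 5, so TATAAA lay after the annotated start. The GABPA matches began at -5 and 33. Those of Cox7a1 and Cox7a2 held no match, which says only that these letters are not in the window. The muscle forms were poor in CpG, with 7 in Cox7a1 and 2 in Cox8b, against 20 in Cox7a2 and 19 in Cox8a, and medians of 19 over the 68 members with an entry and 20 over 10365 tested genes with one. The fewest among those members was 2, so that Cox8b was at the low end.

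Over the 68 members with a promoter in the table, 38 (55.9%) held NRF1, GABPA or YY1, factors known to drive nuclear genes for mitochondrial proteins, against 31.6% of tested genes. NRF1 was found in 17 of 68 (25.0%, against 11.1% of tested genes and 4.60% of all promoters). GABPA was found in 17 of 68 (25.0%, against 19.4% and 8.86%), and YY1 in 10 of 68 (14.7%, against 5.72% and 2.38%). The ERR motif, read by estrogen-related receptors, was found in 8 of 68 (11.8%, against 3.79% and 4.72%). MEF2 was found in 1 of 68, Cox5b (1.47%, against 3.81% and 3.69%), the E-box in 6 (8.82%, against 18.2% and 16.3%) and TATAAA in 7 (10.3%, against 9.30% and 13.6%). These are counts of letters in the window and were not compared with the differences between groups.

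The remaining members of complex IV had no shared direction. Over the 15 members without the muscle isoforms the mimic mean was higher in 8 and lower in 7, and the median log2 fold change was 0.0020. The highest library was 1.75-fold above the lowest in Ndufa4l2 and 1.71-fold in Cox4i2, the widest ranges of the 81 members other than the muscle isoforms. Cox4i2, a form of subunit 4 known from lung and from low oxygen, stood at 8.94, 6.11 and 7.14 FPKM in control and at 9.20, 8.97, 7.93 and 10.5 FPKM in mimic libraries, with a log2 fold change of 0.30 (95% interval -0.02 to 0.62, SE 0.136, adjusted p by limma = 0.308). Only control replicate 2 exceeded a mimic library in it. Its partner Cox4i1 stood at 450.5 ± 55.7 FPKM (SD, n = 3) and 456 ± 37.9 FPKM (SD, n = 4).

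Cox5a and Cox5b, core-associated subunits without a muscle form, had log2 fold changes of -0.0058 and 0.014. Cox7a2l, which takes part in joining complexes III and IV, stood at 67.4 ± 10.7 and 67.3 ± 5.13 FPKM, and Ndufa4 at 260.2 ± 26.5 and 263 ± 32.1 FPKM. Ndufa4l2, known as a hypoxia-inducible paralog of Ndufa4, departed from the shared library pattern. It stood at 60.9, 52.4 and 91.7 FPKM in control and at 67.9, 68.4, 63.4 and 57.7 FPKM in mimic libraries, so that control replicate 5 was its highest, and its log2 fold change was -0.048 (SE 0.180, adjusted p by limma = 0.902).

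In ATP synthase the mimic mean was higher in 12 of 17 members and lower in 5, with 0 of 17 at an unadjusted p under 0.05 and a median log2 fold change of 0.021. With the muscle covariate that median was -0.063, and it ran from -0.049 to 0.11 with a library left out. Atp5b, the catalytic beta subunit, stood at 435, 399.9 and 392 FPKM in control and at 344, 452, 391 and 486 FPKM in mimic libraries, with a log2 fold change of 0.021 (SE 0.129, adjusted p by limma = 0.943). The lowest and the highest library of this gene were both mimic. Atp5a1, the alpha subunit, stood at 286 ± 14.9 and 288 ± 35.9 FPKM. Atp5l, subunit g of the membrane part, had the smallest p of the complex, with 27.4 ± 3.56 and 28.9 ± 1.48 FPKM in the control and mimic groups and a log2 fold change of 0.084 (SE 0.0943, adjusted p by limma = 0.643). Atp5md, a small subunit of the dimer interface also called DAPIT, stood at 139, 116 and 126 FPKM and at 109, 135, 109.5 and 126 FPKM, a log2 fold change of -0.081 (SE 0.104, adjusted p by limma = 0.688).

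The 3 genes for the ring subunit c had group means closer than the SD of either group. Atp5g1 stood at 64.3 ± 5.31 and 62.8 ± 6.08 FPKM, Atp5g2 at 38.2 ± 7.32 and 38.3 ± 3.72 FPKM and Atp5g3 at 322 ± 11.5 and 317 ± 19.4 FPKM. Atpif1, which encodes the inhibitor of the enzyme's ATP hydrolysis and is not a member, stood at 172, 155 and 173 FPKM in control and at 151, 153, 158 and 144 FPKM in mimic libraries. Its log2 fold change was -0.14 (SE 0.0693, adjusted p by limma = 0.347), and 1 mimic library lay above the lowest control.

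Gene length moved with the library differences. Over the 81 members without the muscle isoforms, the difference of a library from the 7-library mean was related to the log2 length of the gene model with a Pearson r of -0.47 in control replicate 2 and 0.42 in control replicate 3, and between -0.27 and 0.32 in the other libraries. In control replicate 3 the 34 members under 600 bases lay at a mean log2 difference of -0.18 and the 24 of 1000 bases or more at -0.095. In mimic replicate 5 the same groups lay at 0.098 and 0.17. These relations run across genes, which share the library and are not replicates, and the part of length in the differences was not tested.

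Other mitochondrial genes were counted from lists chosen for their roles. Of 13 subunits encoded by mitochondrial DNA, 7 were tested: the mimic mean was higher in 6 and lower in 1 (mt-Nd6), 0 had an unadjusted p under 0.05, and the median log2 fold change was 0.067. mt-Co1, the catalytic subunit of complex IV, stood at 4540, 4494 and 4181 FPKM in control and at 4020, 4628, 4400 and 5310 FPKM in mimic libraries. mt-Nd4l was listed at 0 in every library, and mt-Nd3, mt-Co2, mt-Co3, mt-Atp6 and mt-Atp8 were at or near 0 in all, so their levels are not read here. Of 44 assembly factors tested, the mimic mean was higher in 31 and lower in 13. At an unadjusted p under 0.05, 2 were higher (Tmem126b and Surf1) and 1 lower, against 7.48% and 10.1% of all genes. The groups did not overlap in 2 with mimic higher (Tmem126b and Coa5) and 1 with mimic lower, against 6.48% and 8.84% of all genes. None passed the adjusted p. Cox18, an inner membrane insertase for complex IV, was the lower one, at 12.0, 12.8 and 13.3 FPKM in control and 9.90, 10.2, 10.7 and 11.6 FPKM in mimic libraries, without overlap (log2 fold change -0.25, SE 0.0701, adjusted p by limma = 0.179).

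Regulators of mitochondrial genes leaned lower. Of 11 tested, the mimic mean was lower in 8, and the median log2 fold change over the 11 was -0.12. Lower at an unadjusted p under 0.05 were 3 (background 10.1%), lower without overlap were 4 (background 8.84%), and 0 passed the adjusted p. Ppard, a nuclear receptor that controls fatty acid oxidation, stood at 14.8, 15.3 and 14.7 FPKM in control and at 13.2, 12.3, 13.1 and 12.9 FPKM in mimic libraries, each mimic below each control (log2 fold change -0.21, SE 0.0516, adjusted p by limma = 0.176). Gabpb1, the partner of GABPA, had a log2 fold change of -0.19 and Nrf1 of -0.12, while Tfam, which packages and transcribes mitochondrial DNA, had 0.062.

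Of 14 citric acid cycle genes, 8 had the higher and 6 the lower mimic mean, with 0 at an unadjusted p under 0.05 and a median of 0.051. Of 12 genes of fatty acid oxidation and electron transfer flavoprotein tested, 11 had the higher mimic mean, with a median of 0.082. Among the 11, 1 had an unadjusted p under 0.05 (background 7.48% higher). That gene was Hadh, a dehydrogenase of short-chain substrates, at 36.8, 29.1 and 26.9 FPKM in control and 36.9, 42.8, 36.6 and 41.6 FPKM in mimic libraries, overlapping by control replicate 2. Of 8 carriers the mimic mean was higher in 4 and lower in 4, with a median of 0.012. Lower at an unadjusted p under 0.05 was 1, Slc25a5, whose groups overlapped (background 10.1%). Lower without overlap was 1, Vdac2 (background 8.84%). Slc25a5, an ATP/ADP carrier of many tissues, had a log2 fold change of -0.28 (unadjusted p = 0.0240), while its muscle-rich paralog Slc25a4 had 0.29 (unadjusted p = 0.215) and Ckmt2, the creatine kinase of muscle mitochondria, had 1.43 (unadjusted p = 0.0622). None of these passed the adjusted p.

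Markers of other tissues of the ankle were counted in the same way, and no gene of these lists passed the adjusted p. Over all genes tested, 7.48% were higher and 10.1% lower in mimic ankles at an unadjusted p under 0.05. The adipocyte list had the higher mimic mean in 10 of 10 genes, 9 at an unadjusted p under 0.05 and 6 without overlap, with summed levels of 823 to 2870 FPKM in control and 1942 to 3925 FPKM in mimic ankles. Car3 made up a large part of those sums, at 239 to 1837 FPKM in control and 795 to 2537 FPKM in mimic ankles. Its highest values lay in control replicate 2 and mimic replicates 2 and 5, the libraries with the most muscle transcript. Of 6 brown fat genes 2 were tested, and both had the higher mimic mean (1 at an unadjusted p under 0.05, Cidea, and 0 without overlap). Ucp1, the defining marker of brown fat, was at 0.138 to 1.26 FPKM and was not tested. The neutrophil list was lower in 10 of 10 (4 at an unadjusted p under 0.05, 2 without overlap; 3140 to 6418 against 1348 to 3462 FPKM) and the osteoclast list in 8 of 8 tested (8 at an unadjusted p under 0.05, 7 without overlap; 2204 to 2339 against 1773 to 1990 FPKM). The cartilage list was higher in 8 of 8 (3 at an unadjusted p under 0.05, 3 without overlap; 147 to 184 against 190 to 236 FPKM) and the erythroid list in 7 of 7 tested (0 at an unadjusted p under 0.05, 0 without overlap; 153 to 656 against 218 to 1722 FPKM). The macrophage list ran both ways, with the mimic mean higher in 3 of 8 genes (0 at an unadjusted p under 0.05) and lower in 5 (2 at an unadjusted p under 0.05, Cd68 and Csf1r, and 1 without overlap; 1268 to 1435 against 1133 to 1516 FPKM). Their part in the levels of the chain subunits was not tested.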

How the data were processed

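Sequencing of RNA from 7 ankles used an Illumina NextSeq, as the labels state. The deposited table holds FPKM per gene and library made by the authors, with exon positions, gene model length and Entrez number, per the file headers. The submitters' processing notes list STAR 2.5.2b, DESeq2 1.14.1, bcl2fastq 2.20, Subread and featureCounts (roles not stated) and the builds mm10 and GRCm38. Annotation release and strand setting: not given in the sources used here.

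Symbols came from a RefSeq gene table of that build, which matched 25275 Entrez numbers and uses older ATP synthase names (Atp5a1 is Atp5f1a, Atp5b is Atp5f1b, Atp5g1 to Atp5g3 are Atp5mc1 to Atp5mc3). FPKM times length gave whole reads for 100% of values within 0.01 of a read. Group differences were fitted with limma 3.58.1 in R 4.3.3 (lmFit, eBayes with trend) on log2(FPKM + 0.5) over the 13418 genes that averaged 1 FPKM or more, a scale that understates the change of low genes, with Benjamini-Hochberg adjustment over all of them at 0.05, 2-sided. The fit was tested on simulated data. Isoform ratios used an exact permutation test over the libraries. Promoters and miR-17-5p were read from RefSeq tables (GRCm38.p6) and 3 prime UTRs from GENCODE M21.

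The members, the 15 lists (193 entries, 1 unmatched) and the named genes (isoforms, core subunits and the 2 members of each complex with the smallest p) were chosen with earlier results of these data known. Counts cover all 84 members, and 1 of them is not reported here by name. Alternatives were pseudocounts of 0.1 and 1, a limit of 5 FPKM or none, median-of-ratios and quantile scaling, limma-voom on recovered reads, the fast muscle mean as a covariate, the replicate number as a block, and each library left out in turn. Added after seeing the data were the assignment of complexes by symbol alone and complex IV without its muscle isoforms. Other tools were Python 3.11.15, pandas 2.3.3, scipy 1.17.1 and matplotlib 3.10.9. All 21 library pairs differed by more than sampling noise (chi-square on reads of at least 20.4 per gene).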

Additional observations from a re-analysis of the deposited data

Results flagged for a closer look

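In 2 of the 43 groups of 4 mimic values checked, 1 library stood far from the others by Dixon's test at the 95% level. Chance flags about 1 in 20 groups. In Atp5g2, a gene for the ring subunit c of ATP synthase, mimic replicate 2 stood at 43.8 FPKM while the other mimic libraries lay between 35.5 and 36.9 FPKM. In Cox7a2l, mimic replicate 2 stood at 75.0 FPKM and the other mimic libraries between 64.4 and 65.6 FPKM. Control replicate 2 was of similar height in both genes, at 43.1 and 77.3 FPKM.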

How the results depend on the processing

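No member passed the adjusted p under any alternative run. Over 34 named members and 16 alternatives (544 values), 461 kept their direction and 83 reversed, and the lowest adjusted p was 0.0831 (limma or limma-voom). Members at an unadjusted p under 0.05 numbered 1 with limma-voom on recovered reads and 0 to 2 when a library was left out: Cox6a1 without control replicate 3, Cox4i2 without mimic replicate 4, and Cox4i2 and Ndufs4 without control replicate 2. Over all genes that count was 1515 with the muscle covariate, 1064 with the replicate block and 1216 to 3833 with a library left out, while 0 to 115 genes were higher and 0 to 203 lower at the adjusted p (115 and 203 without control replicate 2). Without a filter on low values, 1 gene was lower at the adjusted p. Numbers 2 and 5 occur in both groups. Deviations of same-numbered libraries correlated at 0.54 and -0.43 over 13418 genes, and those of different-numbered libraries at -0.52 to 0.53. Whether same-numbered libraries share more than the number cannot be told from these values. The replicate block rests on those numbers. Its group difference comes from the libraries numbered 2 and 5 alone, since each other number occurs in a single group. It gave log2 ratio differences of 1.90 for Cox6a2 to Cox6a1, 1.79 for Cox7a1 to Cox7a2 and 1.88 for Cox8b to Cox8a. The pairs behind these were unlike. For Cox6a2 to Cox6a1 the log2 ratio was -1.45 in control and -0.83 in mimic replicate 2, against -3.87 in control and -0.69 in mimic replicate 5. The muscle covariate gave -0.041 for Cox6a2 to Cox6a1 and -0.18 for Cox8b to Cox8a.

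Log2 fold changes reversed with the muscle covariate in Atp5a1 -0.11, Atp5b -0.12, Atp5g2 -0.011, Atp5l -0.039, Cox4i1 -0.062, Cox5b -0.060, Cox6a2 -0.16, Cox7a2l -0.052, Cox8b -0.24, Cyc1 -0.082, Ndufa4 -0.12, Ndufa4l2 0.15, Ndufab1 -0.13, Ndufs1 -0.097, Ndufv1 -0.034, Sdha -0.076, Uqcrb -0.047, Uqcrc1 -0.072, Uqcrc2 -0.042 and Uqcrfs1 -0.15. They reversed with quantile scaling in Atp5a1 -0.0078, Atp5g1 0.012, Cox5a 0.013, Sdhb 0.013 and Sdhc 0.025, with the replicate block in Atp5g1 0.040, Atp5g2 -0.077, Atp5g3 0.024, Cox5a 0.055, Cox7a2l -0.057, Sdhb 0.045 and Sdhc 0.055, and with median-of-ratios scaling in Atp5a1 -0.00028. With a library left out, the range crossed 0 in Atp5a1 -0.068 to 0.064, Atp5b -0.055 to 0.11, Atp5g1 -0.087 to 0.031, Atp5g2 -0.15 to 0.11, Atp5g3 -0.054 to 0.0062, Atp5l -0.024 to 0.15, Cox4i1 -0.064 to 0.11, Cox5a -0.048 to 0.055, Cox5b -0.039 to 0.074, Cox7a2 -0.10 to 0.016, Cox7a2l -0.12 to 0.11, Cyc1 -0.033 to 0.095, Ndufa4 -0.051 to 0.092, Ndufa4l2 -0.22 to 0.18, Ndufab1 -0.049 to 0.088, Ndufs1 -0.039 to 0.14, Sdha -0.043 to 0.072, Sdhb -0.064 to 0.017, Sdhc -0.058 to 0.034, Uqcrc1 -0.019 to 0.11 and Uqcrfs1 -0.033 to 0.14. The cause of these reversals was not tested. A member rested on at least 58 reads in each library, and whether depth or the number of libraries limits precision more was not compared.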
